A study of Rattus norvegicus with 18 samples.

Results

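miR-148a is a microRNA linked to cholesterol and lipid handling in the liver, and both mature strands of its hairpin, rno-miR-148a-3p and rno-miR-148a-5p (rno for rat), were measured in rat liver. They are 2 of the 401 mature miRNAs in the deposited count table and were chosen by name. The table covers 18 small RNA libraries in 3 groups of 6, all from whole livers of rats aged 8 weeks. The first group is labelled lean, with no agent named. The second is obese ZDF given vehicle. The third is obese ZDF given colesevelam, a bile acid sequestrant that binds bile acids in the gut and is used to lower LDL cholesterol. ZDF, the Zucker diabetic fatty rat, is a model of obesity and diabetes with a leptin receptor defect. All 18 libraries carry the strain label ZDF-Leprfa/Crl, also the lean ones, which only their title and phenotype label set apart. The labels read here give no dose, route or length of treatment.

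A miRNA hairpin is cut by Drosha and Dicer into a short duplex, and usually the strand from one arm is loaded into an Argonaute protein while the other is degraded. The loaded strand finds messenger RNAs mainly through its seed, the bases just after its 5′ end. miR-148a-3p is abundant in hepatocytes and is known to repress the LDL receptor and the cholesterol exporter ABCA1. Its gene is known as a target of the lipid-synthesis factor SREBP1 in mouse liver. Its seed is shared with miR-148b-3p and miR-152-3p, which come from other loci. No messenger RNA or protein was measured here.

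The 3p strands of the family are shown to compare the shared seed, bases 2 to 8, which stands in capitals, with the letters by which the members can be told apart. Sequences are those of RefSeq (rat assembly GRCr8) and are identical to the deposited ones.
miR-148a-3p: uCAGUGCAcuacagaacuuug
miR-148b-3p: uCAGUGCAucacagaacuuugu
miR-152-3p: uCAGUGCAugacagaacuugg
The 5p strands are shown in the same way, with miR-148b-5p taken from the deposited table.
miR-148a-5p: aAAGUUCUgagacacucugacuc
miR-148b-5p: gAAGUUCUguuauacacucagg
miR-152-5p: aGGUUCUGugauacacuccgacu
The hairpin from which both measured strands come is shown with the 5p and then the 3p strand in capitals.
miR-148a hairpin: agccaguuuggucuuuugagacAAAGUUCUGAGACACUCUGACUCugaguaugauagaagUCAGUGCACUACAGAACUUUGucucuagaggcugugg

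The seed CAGUGCA was held by 3 of the 401 rows, the 3p strands of miR-148a, miR-148b and miR-152. The 5p seed AAGUUCU was held by 2 rows, miR-148a-5p and miR-148b-5p, and the seed of miR-152-5p, GGUUCUG, by that row alone. Counted from the 5′ end, miR-148a-3p differs from miR-148b-3p by C9U and U10C over 21 compared positions. It differs from miR-152-3p by C9U, U10G and U20G. In GRCr8 the hairpin of 97 bases lies at chr4:81664431-81664527 on the minus strand. Its 5p strand takes bases 23 to 45 and its 3p strand bases 61 to 81, with 15 bases between them. The deposited table places the 3p strand at 145680972 to 145680992 and the 5p strand at 145681008 to 145681030 of chromosome 4, minus strand, in a build that the table does not name.

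Library totals ran from 32936 to 881452 counts, with 110352 to 881452 in lean, 37910 to 147313 in vehicle and 32936 to 122881 in colesevelam livers. Depth therefore differed between the lean and the obese groups. A miRNA with 3 counts stood at 3.40 CPM (counts scaled to one common total) in the library with most counts and 91.1 in that with fewest, and both miR-148a strands were above that in every library. 5 hepatocyte markers, miR-122-5p, miR-122-3p, miR-192-5p, miR-194-5p and miR-802-5p, were detected in all 18 libraries and together held 19.6% to 38.1% of counts. The labels do not say whether each library is a separate animal. In 5 cases a pair of libraries carries the same number in its description, and if that number marks a rat, the groups hold 4 lean, 5 vehicle and 4 colesevelam rats. The p-values below measure the spread between libraries, some of which may be technical. In whole liver, fewer cells of a type and less RNA per cell cannot be told apart.

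miR-148a-3p was among the most abundant miRNAs of these livers and miR-148a-5p was a minor strand. With counts pooled over all libraries, miR-148a-3p ranked 3 of 401 with 5.96% of all counts and miR-148a-5p ranked 33 with 0.229%. In the pool the deeper lean libraries weigh most. As unweighted means over the 18 libraries, the 3p strand had rank 7 and 4.92% of counts, and the 5p strand rank 37.2 and 0.211%. In single libraries the 3p strand ranked between 2 and 16 and the 5p strand between 29 and 49. The 3p strand took 5.77% ± 1.5 of counts in lean, 4.44% ± 1.5 in vehicle and 4.54% ± 1.41 in colesevelam livers (SD, n = 6 each). The 5p strand took 0.222% ± 0.0272, 0.258% ± 0.0720 and 0.153% ± 0.0351 in the same order. The 3p share was highest in the lean group and the 5p share lowest in the colesevelam group.

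The level of miR-148a-3p varied widely within each group and the groups overlapped in every comparison. For levels, the library totals behind CPM were adjusted by TMM factors, and miRNA counts are not divided by length. In lean livers the level was 42131, 84493, 41379, 69263, 41193 and 77139 CPM in libraries 1 to 6. In vehicle livers it was 32568, 58736, 20116, 57762, 55392 and 35361 CPM. In colesevelam livers it was 48033, 38313, 48444, 21676, 58903 and 72719 CPM. Lean libraries 2, 4 and 6 stood above every vehicle library, and vehicle libraries 1, 3 and 6 stood below every lean one. The lowest libraries of the series were vehicle 3 and colesevelam 4, both among the 4 with under 40000 counts. The group means were 59266 ± 19980, 43323 ± 16182 and 48015 ± 17418 CPM, with coefficients of variation of 33.7%, 37.4% and 36.3%. Ordered by mean, lean came first, then colesevelam, then vehicle, and no neighbouring pair differed beyond its spread by the test given further on.

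The mean level of miR-148a-5p was lowest in colesevelam livers. It was 2347, 2908, 1964, 2541, 1765 and 1987 CPM in lean libraries 1 to 6. In vehicle libraries it was 1621, 2472, 1820, 3326, 3501 and 2285 CPM. In colesevelam libraries it was 1383, 1857, 1798, 1231, 1263 and 1969 CPM. 4 of the 6 vehicle libraries stood above every colesevelam library, and 3 of the 6 colesevelam libraries below every vehicle library, so the groups overlapped in part. The group means were 2252 ± 428 CPM in lean, 2504 ± 770 in vehicle and 1584 ± 328 in colesevelam livers, with coefficients of variation of 19.0%, 30.8% and 20.7%. The raw counts behind these levels were 46 to 162 in colesevelam, 65 to 536 in vehicle and 271 to 2213 in lean libraries. The order of means was vehicle, lean, colesevelam, and for the 3p strand it was lean, colesevelam, vehicle.

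**Figure D1:**
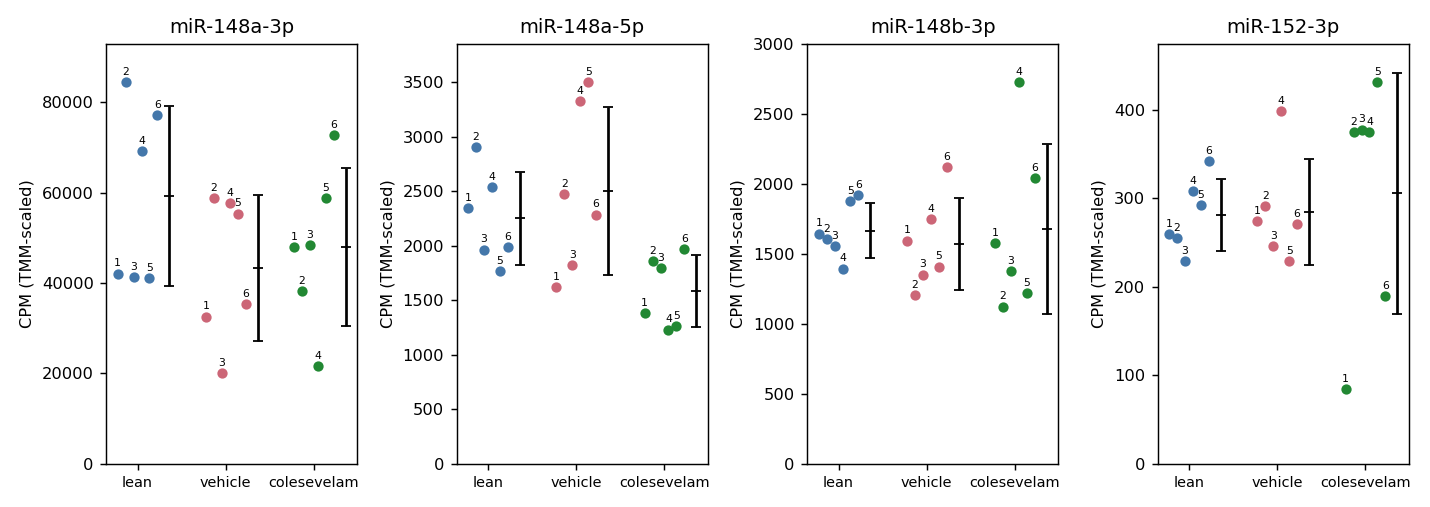
Level in CPM (vertical axis, from 0, a separate scale in each panel) of miR-148a-3p, miR-148a-5p, miR-148b-3p and miR-152-3p in each library of the 3 groups. Points are libraries with their replicate number, bars the mean ± SD of 6 libraries. The 6 colesevelam libraries sit between 1231 and 1969 CPM for miR-148a-5p. Lean 3, lean 5, vehicle 1 and vehicle 3 lie in the same range, and the groups overlap for every strand shown.

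Vehicle-treated obese livers were set against lean livers to ask how the obese state goes with liver miRNAs. Neither miR-148a strand passed the test. The 3p strand differed by a log2 fold change of -0.45 ± 0.29 (SE; 95% interval -1.06 to 0.15; edgeR adjusted p = 0.437). The 5p strand differed by 0.16 ± 0.21 (interval -0.27 to 0.58; edgeR adjusted p = 0.779). Of 112 tested miRNAs 7, or 6.25%, were called, against 0 of the 2 strands. At an unadjusted p under 0.05 the share was 18.8%, and again 0 of the 2 strands reached it. Their unadjusted edgeR p-values were 0.137 and 0.453. Groups that did not overlap were found for 2.68% of miRNAs and for neither strand. Without the 4 libraries under 40000 counts, all of them from obese rats and left out after the data were seen, the 3p difference was -0.14 and the 5p difference 0.41 (edgeR adjusted p = 0.962 and 0.478; unadjusted edgeR p of 0.0476 for 5p).

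Colesevelam-treated and vehicle-treated obese livers were compared to ask what the drug changes. miR-148a-5p fell by 0.66 ± 0.21 on the log2 scale, or 1.58-fold (interval -1.10 to -0.23; edgeR adjusted p = 0.0411). It ranked 12 of 112 by p-value, the last of the miRNAs called. miR-148a-3p differed by 0.15 ± 0.29 (interval -0.46 to 0.75; edgeR adjusted p = 0.832), a value that did not pass. Of 112 tested miRNAs 12, or 10.7%, were called, 4 of them (3.57%) lower, against 1 of the 2 miR-148a strands. An unadjusted p under 0.05 was reached by 21.4% of miRNAs, and 5.36% had groups that did not overlap, the miR-148a strands not among the latter. The 5p call lay close to the threshold of 0.05. It held when lean 2, lean 3, lean 6 or vehicle 1 was left out, with adjusted p from 0.0311 to 0.0477. It was lost without any other single library, with adjusted p from 0.0582 without lean 5 to 0.238 without colesevelam 4, while the log2 fold change stayed between -0.76 and -0.54. Without the 4 libraries under 40000 counts it was -0.76 with an adjusted p of 0.0620, and the 3p difference was 0.07. The 5p call was kept under 4 of 13 other alternatives. These were the DESeq2 Wald test (DESeq2 adjusted p = 0.0367) and 3 edgeR settings. The latter were library totals only (edgeR adjusted p = 0.0156), only the 2 groups compared (0.039) and miR-192-5p left out (0.0243). It was lost with libraries of 1 label number summed, which may be 1 rat each (-0.63, edgeR adjusted p = 0.153), with a replicate block (-0.64, 0.111), with DESeq2 size factors (-0.69, 0.0581) and with limma-voom (-0.65, 0.0702).

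A leukocyte marker fell in the same comparison, and its part in the 5p result was not tested. The 5 leukocyte markers, miR-142-5p, miR-142-3p, miR-150-5p, miR-155-5p and miR-223-3p, together held 0.0940% to 0.183% of counts in vehicle and 0.0794% to 0.125% in colesevelam libraries. Of the 2 that could be tested, miR-150-5p, a lymphocyte miRNA, fell by 1.27 ± 0.38 on the log2 scale (edgeR adjusted p = 0.0340). miR-142-5p, a miRNA of blood cell lineages, differed by 0.09 ± 0.37 (adjusted p = 0.936). miR-142-3p was at 0 in 3 vehicle and 5 colesevelam libraries, miR-155-5p in 5 and 2, and miR-223-3p in 3 and 3. Of the 5 hepatocyte markers none was called, and their summed share was 19.6% to 29.3% in vehicle and 23.5% to 35.6% in colesevelam libraries. Most of that share was miR-192-5p, and the markers did not move together. Their log2 fold changes were 0.36 for miR-192-5p, 0.35 for miR-122-5p, -0.01 for miR-194-5p and -0.13 for miR-802-5p. For miR-122-3p it was -0.55 (edgeR adjusted p = 0.136).

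Colesevelam-treated obese livers were also set against lean livers. Both strands were lower in the mean and neither passed. miR-148a-5p differed by -0.51 ± 0.21 on the log2 scale (interval -0.94 to -0.08; edgeR unadjusted p = 0.0230, adjusted p = 0.0779). Of the libraries, 3 colesevelam ones lay below every lean one and 4 lean ones above every colesevelam one. miR-148a-3p differed by -0.30 ± 0.29 (interval -0.91 to 0.30; edgeR adjusted p = 0.489). Here 24 of 112 miRNAs were called, 21.4%, against 0 of the 2 strands. An unadjusted p under 0.05 was reached by 39.3% of miRNAs and by 1 of the 2 strands, and 8.04% of miRNAs had groups that did not overlap. Without the 4 shallow libraries the 3p difference was -0.07 and the 5p difference -0.34 (edgeR adjusted p = 0.905 and 0.253). The 3 comparisons share their groups and are not independent of each other.

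**Figure D2:**
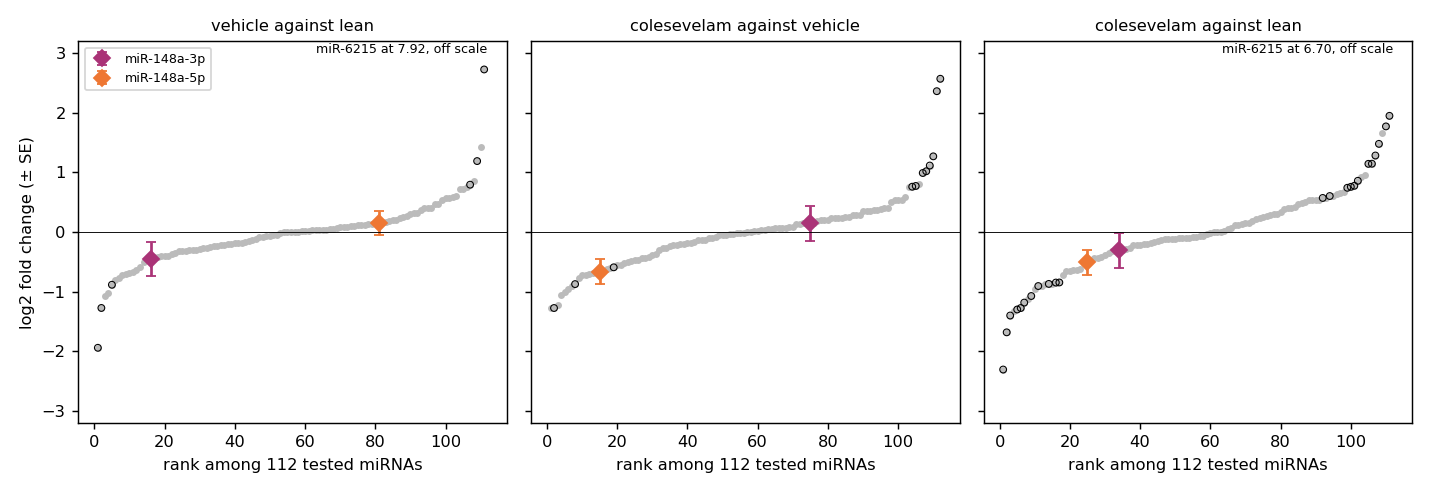
Log2 fold change (vertical axis) of all 112 tested miRNAs in rank order (horizontal axis) for the 3 comparisons, grey points being miRNAs and open black circles those called (the called miR-148a-5p is drawn as its coloured symbol). Coloured symbols with bars (± SE) are the miR-148a strands, which lie at -0.45 and 0.16, at 0.15 and -0.66, and at -0.30 and -0.51 for 3p and 5p. miR-6215 lies off the scale at 7.92 and 6.70.

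Since both strands come from one hairpin, their ratio within a library needs no scaling between libraries. The 3p strand outnumbered the 5p strand in every library, by 11.1-fold in vehicle 3 up to 46.6-fold in colesevelam 5. The ratio was 17.9, 29.1, 21.1, 27.3, 23.3 and 38.8 in lean libraries 1 to 6. It was 20.1, 23.8, 11.1, 17.4, 15.8 and 15.5 in vehicle libraries and 34.7, 20.6, 26.9, 17.6, 46.6 and 36.9 in colesevelam libraries. Vehicle livers had the lowest mean ratio. In 4 of 6 vehicle libraries the ratio was below every lean library and below every colesevelam library. In 4 of 6 colesevelam libraries it was above every vehicle library. Geometric means of 25.4, 16.7 and 28.7 were found for lean, vehicle and colesevelam livers.

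On the log2 scale, with 0.5 counts added to each strand, the mean ratios of the groups were 4.67 ± 0.39, 4.06 ± 0.38 and 4.84 ± 0.54 in the same order (SD, n = 6 each). Vehicle was lower than lean by a difference of -0.60 ± 0.22 (SE), or 1.52-fold (two-sided exact permutation p = 0.0173). Colesevelam was higher than vehicle by 0.78 ± 0.27, or 1.72-fold (exact permutation p = 0.0195). Colesevelam and lean differed by 0.18 ± 0.27 (exact permutation p = 0.519). After Benjamini-Hochberg adjustment over the 13 hairpins with both strands tested, these values became 0.0750, 0.0844 and 0.675 (exact permutation, smallest possible unadjusted p 0.00216), so none of the 3 differences passed 0.05. Of the 13 hairpins 1 (7.69%), 2 (15.4%) and 3 (23.1%) passed in the same order, and 6 (46.2%), 3 (23.1%) and 3 (23.1%) had an unadjusted p under 0.05. An unadjusted p such as that of miR-148a was thus common among hairpins in the vehicle to lean comparison.

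The spread of the ratio between libraries was wider than counting error. From the counts alone, an SD of 0.0709 would arise in lean, 0.136 in vehicle and 0.165 in colesevelam livers on the log2 scale. The observed SDs were 5.51, 2.76 and 3.25 times as large. As a share of both strands, miR-148a-5p made up 3.88% ± 0.972 in lean, 5.76% ± 1.46 in vehicle and 3.52% ± 1.26 in colesevelam livers. In single libraries the share was highest in vehicle 3, at 8.30% with a 95% Clopper-Pearson interval of 6.57% to 10.3%. It was lowest in colesevelam 5, at 2.10% with an interval of 1.75% to 2.49%. Such intervals cover counting error only, and reads that lack molecular identifiers may be copies of one molecule.

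**Figure D3:**
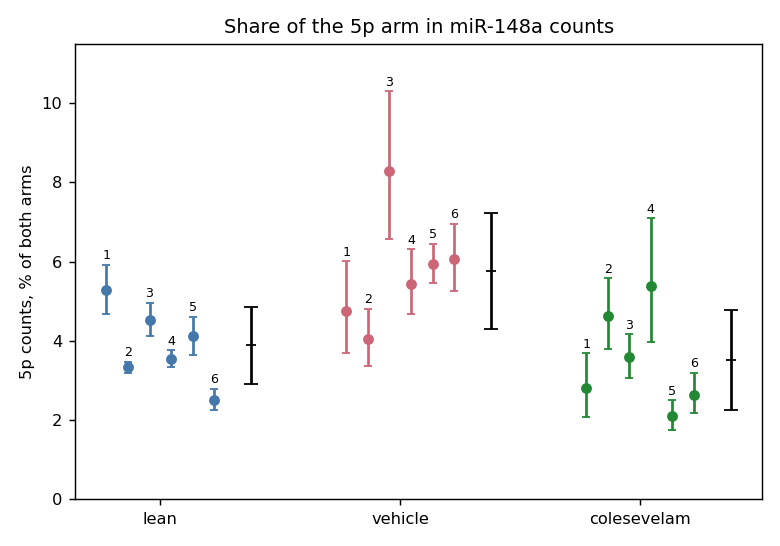
miR-148a-5p as a percentage of both strands (vertical axis, from 0) in each library, with 95% exact binomial intervals from the counts as thin bars and the group mean ± SD beside them. Vehicle libraries average 5.76% and the other groups 3.88% and 3.52%, with overlap between groups.

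Among the 13 hairpins, miR-148a had the second most one-sided ratio toward 3p, with a geometric mean of 23.0 over all libraries, after miR-378a at 387. Its SD within groups, 0.43 on the log2 scale, ranked 10 of 13 from the widest as a mean over the 3 groups, and in colesevelam livers alone 6 hairpins had a wider one. Some hairpins with a wider SD have few counts in their minor strand, such as 308 in all for miR-339. The differences past the threshold, in 4 other hairpins, were larger than those of miR-148a. miR-21, a miRNA raised in many injured tissues, had a 3p to 5p ratio higher by 2.64 ± 0.45 in vehicle and by 1.96 ± 0.42 in colesevelam than in lean livers (exact permutation, adjusted p = 0.0281 and 0.0141). For miR-28 the ratio was higher in colesevelam livers by 1.20 ± 0.21 against vehicle and 1.64 ± 0.24 against lean (adjusted exact permutation p = 0.0422 and 0.0141). miR-122, the main hepatocyte miRNA, had a ratio lower by a difference of -0.97 ± 0.28 in colesevelam than in vehicle livers (adjusted exact permutation p = 0.0422). That shift is opposite in sign to the 0.78 of miR-148a. For miR-423 the ratio was higher by 1.25 ± 0.38 in colesevelam than in lean livers (adjusted exact permutation p = 0.0281).

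**Figure D4:**
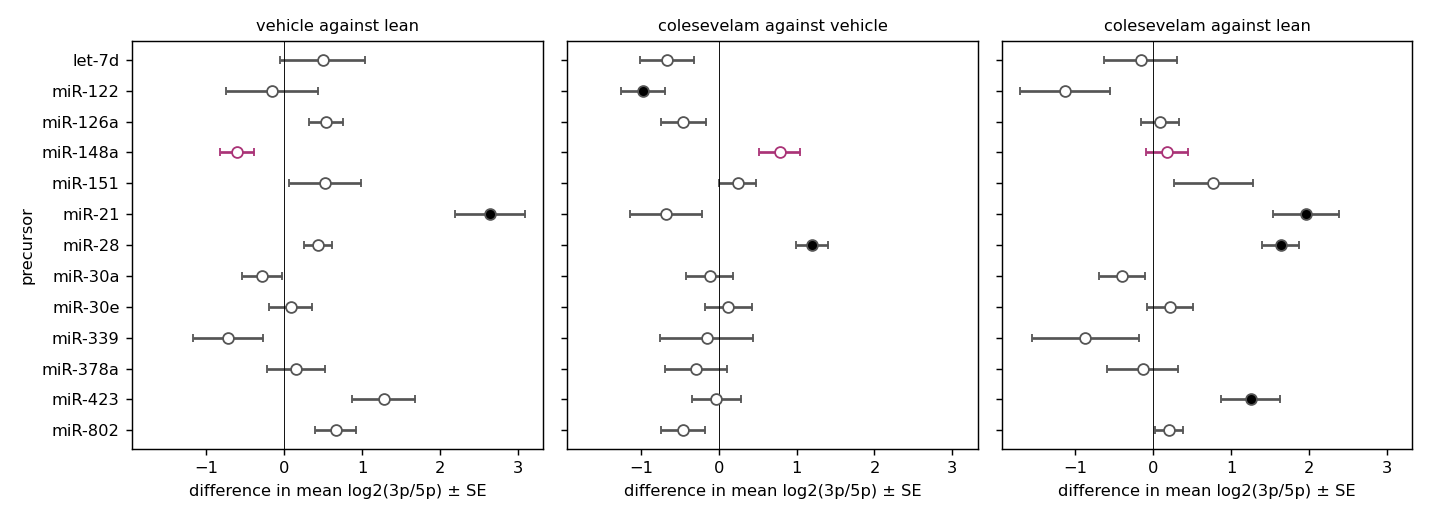
Difference in log2 3p to 5p ratio (horizontal axis, ± SE) for the 13 hairpins with both strands tested, in the 3 comparisons, with filled black points past the adjusted threshold and miR-148a in purple. miR-148a lies at -0.60, 0.78 and 0.18, none of them past it.

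Within the seed family, miR-148a-3p supplied nearly all counts. Its share of the counts with seed CAGUGCA was 92.6% to 97.8% in 17 libraries and 87.5% in colesevelam 4. The ratio of miR-148a-3p to miR-148b-3p ran from 7.94 in colesevelam 4 to 52.5 in lean 2. miR-148b-3p stood at 1668 ± 199, 1573 ± 330 and 1680 ± 609 CPM in lean, vehicle and colesevelam livers, and miR-152-3p at 281 ± 41.0, 285 ± 59.8 and 305 ± 136 CPM. For miR-148b-3p the log2 fold changes were -0.08 (vehicle against lean), 0.08 (colesevelam against vehicle) and 0.00 (colesevelam against lean). For miR-152-3p they were 0.01, 0.15 and 0.16. None of these passed the test (edgeR adjusted p of 0.739 or more). The family list held 6 strands, of which 4 could be tested, and its only call was miR-148a-5p in the colesevelam to vehicle comparison. Of all 112 tested miRNAs, 10.7% were called in that comparison, 6.25% in vehicle against lean and 21.4% in colesevelam against lean. miR-148b-5p and miR-152-5p were too low to be tested.

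The counts of miR-148a-3p and miR-148b-3p are not fully separate. Both rows hold fractions of 0.5 in the same 8 of 18 libraries, and their sum is whole in all 18. miR-148a-5p holds no such fraction. How many reads were split between the rows is not known from the table. With miR-148b-3p counts added to the 3p strand, a check chosen after the data were seen, the log2 ratio differed by -0.59 for vehicle against lean and 0.78 for colesevelam against vehicle (exact permutation, adjusted p = 0.0657 and 0.0563).

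The strands varied together from library to library within groups. With group means removed, their log2 CPM correlated at Pearson's r = 0.644 (permutation p = 0.00924, adjusted 0.0299 over 7 relations) and Spearman's rho = 0.717 (permutation p = 0.00217, adjusted 0.0152). Without colesevelam 4 and vehicle 3, the libraries farthest from the median 3p level, r was 0.549. The strands share the library, its depth and its scaling. Both strands also moved with depth. Against log2 total counts, r was 0.57 for the 3p strand and 0.554 for the 5p strand (permutation, adjusted p = 0.0299 each), with rho of 0.662 and 0.608 (adjusted 0.0199 each). Without lean 2 and vehicle 5, r was 0.484 and 0.334. The strand ratio had r = 0.31 and rho = 0.36 with depth (permutation p = 0.222 and 0.167), and r = 0.374 without the same libraries. The part of depth in the group differences was not tested beyond leaving out shallow libraries.

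By the same group-centred measure over 18 libraries and 111 other miRNAs, the strand most like miR-148a-3p was miR-101a-3p (r = 0.854). miR-126a-5p (0.842) and miR-101b-3p (0.820) came next. miR-148a-5p was most like miR-21-5p (0.694), miR-30c-5p (0.674) and miR-148a-3p (0.644). From the side of the 3p strand, the 5p strand ranked 13. The seed relatives had low values, with r = -0.249 for miR-148b-3p and -0.040 for miR-152-3p against miR-148a-3p. These values are a description, and the strands compared share each library with its depth and composition.

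The level of miR-148a-3p also moved with base composition, while for miR-148a-5p the relation lay close to the threshold of 0.05. A slope of each library's miRNA levels on GC content, in log2 units per 10% GC, averaged -0.73 in lean, -0.55 in vehicle and -0.72 in colesevelam livers. Across libraries within groups it correlated at r = -0.603 with miR-148a-3p and -0.54 with miR-148a-5p (rho -0.556 and -0.55; permutation, adjusted p = 0.0299 and 0.0519), and at r = -0.363 with the strand ratio (rho -0.35; adjusted p = 0.183). Without vehicle 4 and colesevelam 3 the values were -0.588, -0.422 and -0.441. The slope was fitted over all tested miRNAs, both strands among them, so it is not a measurement separate from their levels. GC content is 42.86% in miR-148a-3p and 43.48% in miR-148a-5p. Its part in the group differences was not tested.

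Among other miRNAs linked to LDL receptor, ABCA1 or lipid synthesis, miR-182, miR-183-5p and miR-30c-5p passed the test in at least 1 comparison. Of a list of 22 names, 21 were in the table and 9 could be tested. Against lean, 1 fell in vehicle livers, miR-182, which with miR-183-5p belongs to a cluster induced by the sterol factor SREBP2, by 0.88 ± 0.19 on the log2 scale (edgeR adjusted p = 0.00362). Against vehicle, 2 rose in colesevelam livers and none fell. miR-182 rose by 2.36 ± 0.19 and miR-183-5p by 2.57 ± 0.29 (edgeR adjusted p = 3.01e-09 and 6.84e-07). Against lean, the same pair rose in colesevelam livers by 1.48 and 1.77, and miR-30c-5p, which represses microsomal triglyceride transfer protein, fell by 0.91 ± 0.20 (edgeR adjusted p = 0.00200). Of the 9 tested, 1, 2 and 3 were thus called in the 3 comparisons, where 6.25%, 10.7% and 21.4% of all 112 miRNAs were. The list was chosen with earlier results of these data known, and miR-182 and miR-183-5p belong to 1 cluster. These shares therefore do not test the list. The list medians were -0.32, 0.35 and 0.25, and the medians of all 112 tested miRNAs 0.01, -0.01 and -0.08. miR-148a-3p, at -0.45, 0.15 and -0.30, was in none of these calls.

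A list of 12 strands, miR-148a among them, was taken as hepatocyte-enriched, though such enrichment was not measured here. Of these strands 10 were tested. In vehicle against lean livers 1 rose, miR-378a-3p, by 0.80 ± 0.21 (edgeR adjusted p = 0.0199). In colesevelam against vehicle livers the only call was the fall of miR-148a-5p. In colesevelam against lean livers miR-378a-3p rose by 0.74, while miR-101a-3p and miR-122-3p fell by 0.85 each (edgeR adjusted p = 0.0153, 0.0380 and 0.00883). Calls of 1, 1 and 3 of 10 stand beside 6.25%, 10.7% and 21.4% of all 112 miRNAs, so their number was near the background. The list medians were -0.27, -0.03 and -0.25. Some markers of other cell types were also lower than in lean livers, and their part in these values was not tested. The erythroid miR-451-5p, the stellate and smooth muscle miR-143-3p, miR-145-5p and miR-199a-3p, and the endothelial miR-126a-3p and miR-126a-5p had no call against lean. The leukocyte miR-150-5p was at -0.0002 in vehicle against lean livers (edgeR adjusted p = 0.999). The leukocyte miR-142-5p fell by 1.27 in vehicle livers and fell by 1.183 in colesevelam livers on the log2 scale, and miR-150-5p fell by 1.27 in colesevelam livers. The cholangiocyte marker miR-200b-3p fell by 1.94 in vehicle livers and fell by 1.68 in colesevelam livers. All 5 changes passed the test (edgeR adjusted p = 0.0328, 0.0236, 0.0179, 0.000653 and 0.00137). The leukocyte markers summed to 0.167% to 0.325% of counts in lean libraries, and the cholangiocyte pair miR-200a-3p and miR-200b-3p to 0.0210% to 0.0539% in lean, 0.00254% to 0.0158% in vehicle and 0.00651% to 0.0184% in colesevelam libraries. miR-200a-3p was at 0 in 3 vehicle and 2 colesevelam libraries.

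In the authors' deposited table, where values come from their own scaling, both strands are listed as lower in obese than in lean livers. For vehicle against lean, the authors' deposited table gives log2 fold changes of -2.84 for miR-148a-3p and -2.13 for miR-148a-5p (adjusted p = 0.000107 and 0.00155). Across its 183 rows with a value, the median in the authors' deposited table is -2.41, so the strands lie at -0.42 and 0.29 from that median. For colesevelam against vehicle, the authors' deposited table gives -0.30 and -1.23 (unadjusted p = 0.581 and 0.0177, adjusted p = 0.842 and 0.144), with a median of -0.36. For colesevelam against lean, the authors' deposited table gives -3.14 and -3.35 against a median of -2.87. The difference between the strands in the authors' deposited table, 3p minus 5p, is -0.71, 0.93 and 0.22. Their size factors, recovered from the table, ran from 0.752 to 1.46 and did not follow the miRNA totals, which differed by far more.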

How the data were processed

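Small RNA was sequenced from liver in 18 libraries. The authors deposited estimated counts for each mature miRNA, with no scaling between libraries, and 297 of 7218 values are not whole. The submitters' processing notes name Bowtie 1.1.2 and DESeq2 1.18.1. The counting tool is not named in any source read here. Per the labels' protocols, an Illumina TruSeq RNA kit was used on total RNA, and size selection is not described. Per the file headers, log2 fold changes, p-values and mean scaled counts from the authors' comparisons stand beside the counts. The authors' size factors were recovered from their mean scaled counts.

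Counts were rounded. filterByExpr by group (minimum count 10, minimum total 15) kept 112 of 401 rows, holding 99.55% of counts. These were TMM-scaled (factors 0.814 to 1.19) and tested with edgeR 4.0.16 (robust quasi-likelihood F test, 1 fit over 18 libraries, Benjamini-Hochberg over all rows tested, threshold 0.05), so changes are relative to other miRNAs. The biological coefficient of variation was 36.2%. Strand ratios were compared by two-sided exact permutation over 924 splits, and correlations used 100000 permutations within groups. Scripts were tested on simulated data. Strands sharing a seed, the 3 most alike per strand, hairpins past the threshold (at most 5) and called list members (at most 4 per list and comparison) were named. Members and lists were chosen with earlier results of these data known. A RefSeq mature miRNA was matched for 363 rows.

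The replicate numbers of the titles were not taken as pairs across groups, since same-numbered libraries of different groups did not all deviate together. Whether libraries of 1 label number within a group deviate together was not tested. Alternatives were other scalings, filters and tools (limma 3.58.1, DESeq2 1.42.0), left-out libraries, a replicate block and summed label numbers.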

Additional observations from a re-analysis of the deposited data

Results flagged for a closer look

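Among 27 groups of 6 values checked for a library far from the others, 2 were marked, and chance marks about 1 in 20. Several of the checked quantities come from the same counts, such as CPM and share of a strand. The checks are thus not independent, and the number marked cannot be weighed against that rate. In vehicle livers, miR-152-3p stood at 398.4 CPM in library 4, while the other 5 libraries lay between 228.6 and 290.8 CPM (gap over range 0.634). In colesevelam livers, miR-148a-3p made up 87.47% of the counts of its seed family in library 4, against 96.23% to 97.27% in the others (gap over range 0.894). Colesevelam 4 had 38047 counts in all, 810 of them miR-148a-3p and 102 miR-148b-3p. It is also the library without which the fall of miR-148a-5p had its highest adjusted p.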

How the results depend on the processing

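With the authors' size factors, which shift the median of all miRNAs by -2.38, -0.36 and -2.76, miR-148a-3p was at -2.84 (vehicle against lean), -0.30 (colesevelam against vehicle) and -3.14 (colesevelam against lean), and miR-148a-5p at -2.13, -1.23 and -3.35. Calls were then 110 (1 up, 109 down), 2 and 109 (1 up, 108 down) of 112. The fall of miR-148a-5p against vehicle kept its direction and lost its call with DESeq2 size factors (-0.69, adjusted p 0.0581), upper-quartile factors (-0.60, 0.0643), no filter (-0.71, 0.189), at least 50 CPM in 6 libraries (-0.53, 0.208), limma-voom (-0.65, 0.0702), libraries of 1 label number summed (-0.63, 0.153) and libraries under 40000 counts left out (-0.76, 0.0620). With the authors' size factors it lost its call as well (edgeR adjusted p = 0.413). It kept its call under 4 of 13 alternatives (adjusted p from 0.0156). The cause was not tested. Against lean, miR-148a-5p passed with library totals only (-0.54, 0.0457) and without miR-192-5p (-0.65, 0.0407). Without shallow libraries the calls were 4, 5 and 13, miR-148a-3p was at -0.14, 0.07 and -0.07, and miR-148a-5p at 0.41, -0.76 and -0.34. For colesevelam against vehicle they were 6 with upper-quartile factors (6 up, 0 down, against 8 and 4; 7 and 7 by library totals), 7 without a filter and 7 with label numbers summed. For colesevelam against lean they split 13 up and 11 down, 11 and 18 by library totals, 12 and 7 with upper-quartile factors and 12 and 13 with DESeq2 size factors.

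With a replicate block, miR-148a-3p was at -0.46, 0.20 and -0.25, miR-148a-5p at 0.15, -0.64 (adjusted p 0.111) and -0.50, and calls were 6, 7 and 20. The paired strand ratio had adjusted p of 0.135, 0.305 and 0.812. Correlations of same-numbered deviations ran from -0.586 to 0.564, and 2, 2 and 1 of 6 pairs correlated best with their own number, so the block is no pairing known from the design.

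Leaving out 1 library, miR-148a-3p ranged from -0.60 to -0.32, 0.05 to 0.35 and -0.43 to -0.15, and miR-148a-5p from 0.03 to 0.26, -0.76 to -0.54 and -0.58 to -0.38. Calls ranged from 5 to 8, 7 (without vehicle 6) to 14, and 17 to 32. The strand ratio ranged from -0.70 to -0.48, 0.64 to 0.93 and 0.04 to 0.32, with adjusted p of 0.0563 or more under every alternative run. Some alternatives could hardly pass after adjustment: the smallest possible exact permutation p was 0.0312 with the block, and 0.0286 without shallow libraries (colesevelam against vehicle) and with label numbers summed (colesevelam against lean). In its lowest library miR-148a-5p had 46 counts.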
